A study of Mus musculus with 6 samples.

Results

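Stefins and cystatins are inhibitors of the papain-like cysteine proteases, and the 8 genes described here are Stfa1, Stfa2, Stfa2l1, Stfa3, BC100530, Cstb, Cst3 and Cst7. They were taken from the array by gene name, and each had 1 probe, so the account rests on 8 of 55681 gene probes (34797 gene names in all). The set was put together because of the signals of Stfa2 and Cst7 on these same arrays. Every value of the members below is therefore a description, and none was tested. The study used 6 Agilent mouse arrays in 1 colour, with 1 array in each group. All mice were C57BL/6 by label and carried either TIARP+/+ (WT) or TIARP-/- (KO). TIARP is the protein encoded by Steap4, a membrane metalloreductase. For each genotype there was 1 array of peritoneal macrophages elicited with thioglycollate for 3 days, carrying no TNF label, and 1 array of such macrophages exposed to TNFα for 24 h. The last array of each genotype held Ly6G+ neutrophils isolated from spleen on magnetic beads. The labels number mice from 1 to 3, and the sources used here do not say whether their RNA was pooled on an array. A duration is labelled only where TNF was added, so the effects of TNF and of time in culture cannot be told apart. With 1 array a group no difference has a replicate check, and no p-value is given.

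Cystatins sit in the active-site cleft of cathepsins and block them reversibly. The stefins (stefin A, of which the mouse has a cluster of near-identical copies, and stefin B, encoded by Cstb) lack a secretion signal and act inside the cell. Cystatin C (Cst3) is secreted, whereas cystatin F (Cst7) is directed to lysosomes of immune cells, where it can inhibit cathepsin C, the protease that activates the serine proteases of granules. Stefin A transcripts are known from neutrophils and other cells of the myeloid line.

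The stefin A copies raise the question of which transcript a probe reads, so the oligos are given first, 5′ to 3′ as in the files. The probes of Stfa1, Stfa2, Stfa2l1, Stfa3 and BC100530 (Cstdc5 in RefSeq) all lie on chromosome 16 in mm9. The first 30 bases are printed for Stfa1, Stfa2 and Cst7, and all 60 for the other members shown. Capitals mark the longest run shared with another gene's probe.
Stfa1, chr16:36285398-36285457, plus strand: tgatctgattcctctcagtggaaagagatt
Stfa2, chr16:36404032-36404089, minus strand: atcccctaacccccattgtaaagagatgcg
Stfa2l1, chr16:36160118-36161876, plus strand: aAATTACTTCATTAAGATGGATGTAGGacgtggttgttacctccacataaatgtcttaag
Stfa3, chr16:36450693-36450752, minus strand: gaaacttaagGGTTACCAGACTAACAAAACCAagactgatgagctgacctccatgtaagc
BC100530, chr16:36359525-36359584, minus strand: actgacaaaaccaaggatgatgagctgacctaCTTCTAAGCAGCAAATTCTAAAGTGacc
Cst7, chr2:150404490-150404549, plus strand: agagagtcctttgatgacattactggagca

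The run in BC100530 is 25 bases long and recurs in the probe of 2010005H15Rik (Csta2 in RefSeq), another stefin A copy. The run in Stfa3 spans 22 bases and recurs in the probe of Gm5483 (Cstdc4). Stfa2l1 shares 26 bases with a probe named in the files only as ENSMUST00000077110, which read 114.7 and 669 in WT and KO macrophages without TNF, 1458 and 2992 with TNF, then 2799 and 2392 in neutrophils. Only these 3 other gene probes shared 20 bases or more with a member. The file also lists a Stfa2 transcript for the Stfa2l1 probe, and its mapped positions cover 1759 bases of genome, so the oligo crosses a gap in the alignment. With letters shared in this way, 1 probe might bind transcripts of different copies. Neither such binding nor what each copy contributed was tested. The probes of Stfa1 and Stfa2 had a longest shared run of 9 bases, and matched at 30 of 37 bases in their best local alignment. A short run between probes does not show which transcripts they bind. The probes of Stfa2 and Stfa2l1 shared only 5 bases, yet a Stfa2 transcript is listed for the Stfa2l1 probe. The Cstb probe lies on chromosome 10 and the Cst3 probe on chromosome 2, each mapped to 1 place in the files.

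Signals are given below as the scanner's linear intensity. Differences are on the log2 scale after each array was set relative to its own 75th percentile, which ran from 224 to 490 in linear signal, so folds are not plain ratios of the printed signals. A probe was counted as higher or lower when its log2 difference reached 1, a 2-fold change, and its brighter array was well above background. All 8 member probes were well above background on all 6 arrays. The scanner's own error was about 10% of signal, which gives 0.20 on a log2 difference (0.30 for Stfa1 in macrophages without TNF). It covers the reading of a spot, not the spread between mice. Levels of different probes are not set against each other.

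The arrays themselves bear on what follows. The Steap4 signal was 174.8 (WT) and 83.1 (KO) in macrophages without TNF, 49.2 and 12.8 with it, and 48.8 and 36.0 in neutrophils. The KO value with TNF was not well above background, and the sources used here do not say whether the probe lies in the deleted part. All 10 macrophage markers of the list were above background on all 6 arrays, the neutrophil ones included. In KO minus WT neutrophils, 6 of these 10 were lower and 0 higher (median -1.15). Of all probes, 4.38% were lower and 5.64% higher by a 2-fold rule there. Of 4 erythroid markers, 3 were higher and 1 lower in KO neutrophils, so the marker signals of the 2 neutrophil arrays were not alike. B-cell markers had a mean log2 level of 5.00 and 4.96 on the WT and KO neutrophil arrays, against values from -1.45 to 0.37 on the macrophage arrays. Cd79a, the B-cell receptor signalling chain, read 17127 and 15516 on the WT and KO neutrophil arrays. In bulk RNA such as this, fewer cells of a type and less RNA per cell cannot be told apart.

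**Figure D1:**
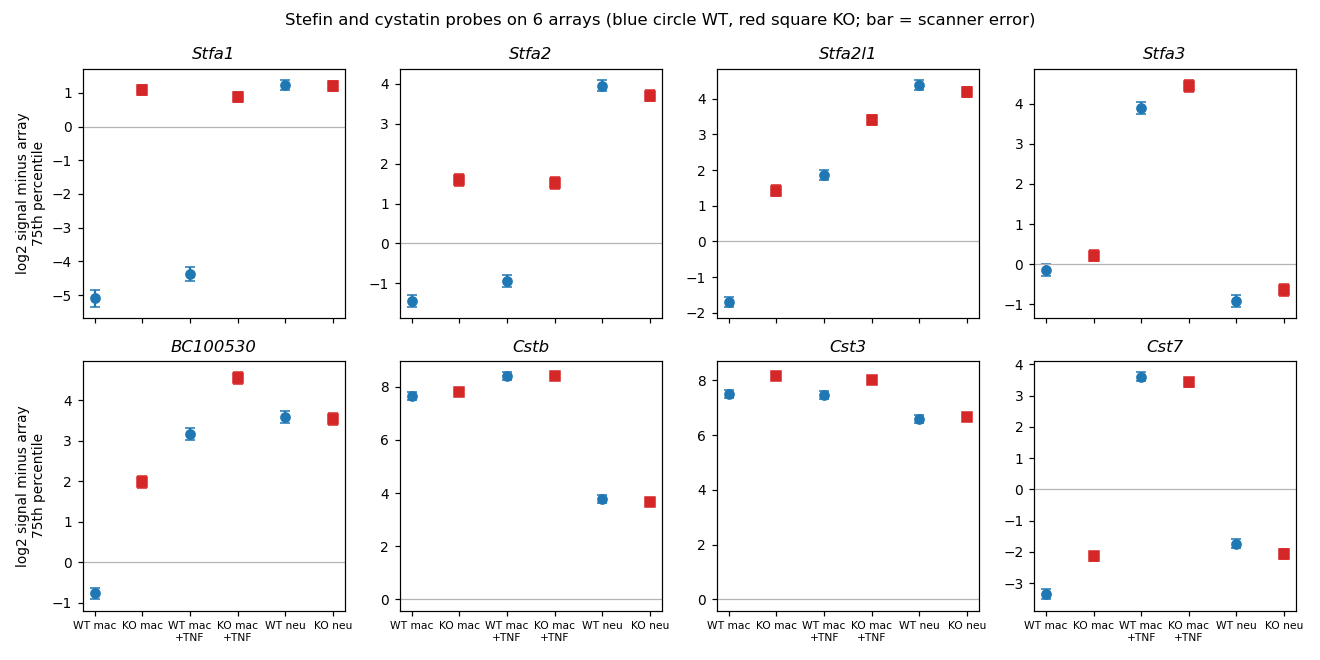
Level of each of the 8 probes (log2 signal minus the array's 75th percentile, own y axis per gene) on the 6 arrays, WT as blue circles and KO as red squares, with bars for the scanner error. Stfa1 is low on both WT macrophage arrays and near 1 on the other 4, whereas Stfa3 and Cst7 are high on the 2 arrays with TNF.

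Stfa1, a stefin A copy, had the widest genotype gap of the set. Its signal was 14.3 on the WT and 866 on the KO array of macrophages without TNF, 20.8 and 620 with TNF, then 546 and 516 in neutrophils. The KO macrophage arrays were thus close to the neutrophil arrays, and the WT macrophage arrays were far below. The difference, KO minus WT, was 6.18 without TNF (72.3-fold), 5.25 with TNF (38.1-fold) and -0.04 in neutrophils. These folds hang on 2 WT signals close to the floor of the array: normexp background correction with an offset of 50 gave 3.96 and 3.45. The order of the 6 arrays was WT neutrophils, KO neutrophils, KO macrophages without and with TNF, then WT macrophages with and without TNF. The first 3 differed by less than the scanner error, though under spike-in scaling KO neutrophils minus KO macrophages was -1.35.

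Stfa2, another copy and 1 of the genes that prompted the set, followed the same order of arrays. It read 180 in WT and 1233 in KO macrophages without TNF, 226 and 968 with TNF, then 3582 and 2912 in neutrophils. The KO macrophages lay between the WT macrophages and the neutrophils, and the KO array was the higher in both macrophage pairs. The difference, KO minus WT, was 3.03 without TNF (8.20-fold), 2.46 with TNF (5.49-fold) and -0.25 in neutrophils. TNF moved neither Stfa1 nor Stfa2 past 2-fold. The log2 difference with TNF minus without was 0.72 and -0.20 for Stfa1 in WT and KO, and 0.51 and -0.07 for Stfa2.

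Stfa2l1 and BC100530 differed with genotype, with TNF and with cell type. Stfa2l1 read 152 and 1101 in WT and KO macrophages without TNF, 1579 and 3585 with TNF, then 4835 and 4109 in neutrophils. The KO exceeded the WT by 3.12 on the log2 scale without TNF (8.69-fold) and by 1.54 with TNF (2.90-fold). BC100530 read 287 and 1627 without TNF, 3890 and 7926 with TNF, then 2774 and 2601 in neutrophils. Its difference, KO minus WT, was 2.76 without TNF (6.77-fold) and 1.38 with TNF (2.61-fold). In both genes the genotype gap was narrower on the arrays with TNF, as a value with no test. In neutrophils the difference was -0.19 for Stfa2l1 and -0.05 for BC100530, both within the scanner error. With TNF, Stfa2l1 was higher by 3.56 in WT (11.8-fold) and 1.98 in KO macrophages (3.95-fold), and BC100530 by 3.94 (15.4-fold) and 2.56 (5.91-fold).

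Gm5483, whose probe is not among the members, went the same way. It read 164 and 915 in WT and KO macrophages without TNF, 2142 and 4645 with TNF, then 2466 and 2645 in neutrophils. The root mean square distance between centred log2 profiles over the 6 arrays was 0.36 from Gm5483 to BC100530 and 0.52 to Stfa2l1. Between Stfa2l1 and BC100530 it was 0.84.

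Stfa3 stood apart from these copies. It read 442 and 474 in WT and KO macrophages without TNF, 6421 and 7361 with TNF, then 122 and 144 in neutrophils. Here the 2 arrays with TNF were high in either genotype, and the neutrophil arrays were lowest. TNF added 4.04 on the log2 scale in WT (16.5-fold) and 4.23 in KO (18.8-fold), while KO minus WT was 0.36, 0.55 and 0.28 in the 3 conditions and never reached 2-fold. The nearest profile among the stefin A copies was that of 2010005H15Rik, at a distance of 0.24. That gene read 771 and 974 without TNF, 11703 and 20378 with TNF, then 290 and 352 in neutrophils. Its 10 spots on the array (9 used on 1 array) had an SD from 0.04 to 0.08 on the log2 scale within an array. Gm5416 (Csta3) also followed TNF, with 89.8 and 138 without it, 1174 and 1833 with it, and 209.2 and 206.9 in neutrophils. BC117090 and Csta were not well above background on any array.

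Cst7, which encodes the lysosomal cystatin F, had the largest TNF difference of the 8. It read 47.8 and 92.3 in WT and KO macrophages without TNF, 5240 and 3632 with TNF, then 69.5 and 53.9 in neutrophils. Both arrays with TNF lay far above the other 4, which were dim. TNF minus no TNF was 6.96 in WT (124-fold) and 5.58 in KO (47.7-fold). KO minus WT was 1.21 without TNF (2.31-fold), -0.17 with TNF and -0.32 in neutrophils. The first of these fell below 2-fold under normexp correction, at 0.69, and under scaling to the spike-ins, at 0.68.

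Cstb and Cst3, the broadly made inhibitors, were bright on every array and did not reach 2-fold between genotypes or with TNF. Cstb, which encodes stefin B, read 97673 and 91124 in WT and KO macrophages without TNF, 145411 and 113909 with TNF, then 3145 and 2803 in neutrophils. All 4 macrophage arrays were thus above both neutrophil arrays. Neutrophils minus macrophages without TNF was -3.87 in WT (14.7-fold lower) and -4.15 in KO (17.8-fold lower). Cst3, which encodes the secreted cystatin C, read 88473 and 116674 without TNF, 76052 and 88014 with TNF, then 22223 and 22674 in neutrophils. It was the flattest of the 8, with a range of 1.57 over the arrays. KO minus WT was 0.66 and 0.57 in the macrophage pairs, the second with TNF, and 0.08 in neutrophils. The neutrophil difference was -0.91 in WT and -1.49 in KO (2.81-fold lower).

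**Figure D2:**
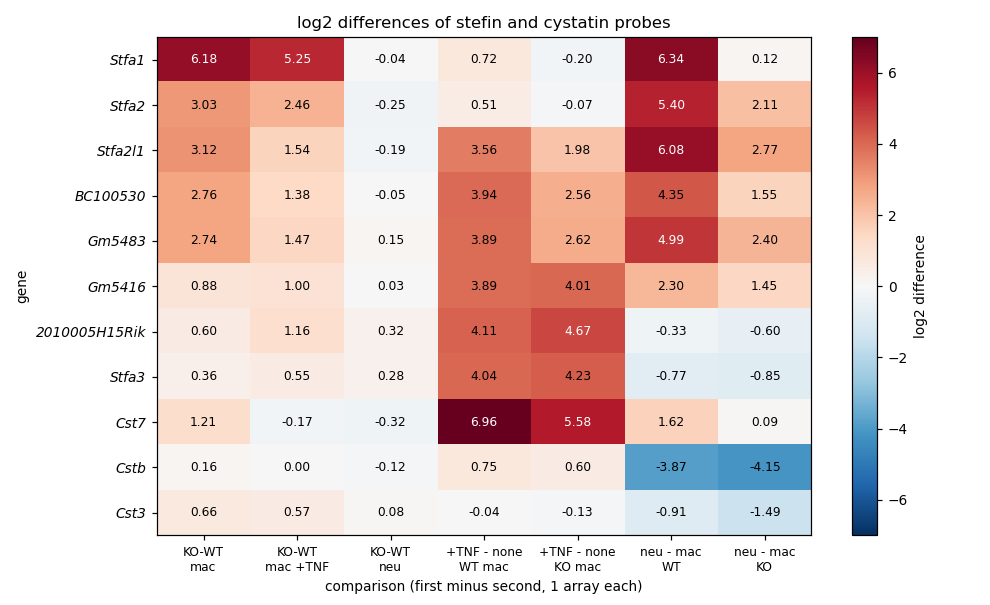
log2 differences of the 8 members and 3 further stefin A genes (rows) in the 7 comparisons (columns, first minus second, 1 array each), red for higher and blue for lower. KO macrophages are higher for Stfa1, Stfa2, Stfa2l1, BC100530 and Gm5483, and the neutrophil genotypes differ by 0.32 at most in size.

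As a group, 5 of the 8 were higher in KO than in WT macrophages without TNF and 0 were lower, with a median difference of 1.98, where the median of all probes was 0.06. Over all probes, 3.82% were higher and 1.69% lower by the rule in that comparison. With TNF, 4 of 8 were higher and 0 lower (median 0.97, against 0.06 for all probes), where 7.28% of all probes were higher and 2.75% lower. In neutrophils 0 of 8 were past it (median -0.08, against 0.01), where 5.64% of all probes were higher and 4.38% lower. The members were picked from these contrasts, so the shares are set side by side and nothing is read from them. TNF minus no TNF counted 4 of 8 higher in WT, where 4.31% of probes were higher and 6.72% lower, and 4 of 8 higher in KO, where 4.41% were higher and 3.64% lower. The same 4 genes were counted in either genotype, namely Stfa2l1, Stfa3, BC100530 and Cst7. Member medians were 2.16 in WT and 1.29 in KO, where those of all probes were under 0.01 in size and 0.02. These TNF comparisons share their arrays with the genotype comparisons. Neutrophils minus macrophages counted 5 higher and 1 lower in WT, and 3 higher and 2 lower in KO (1 higher and 5 lower under spike-in scaling), with medians of 2.99 and 0.11 against 0.11 and 0.19 for all probes. That contrast put 26.3% of all probes higher and 18.7% lower in WT, and 26.2% higher and 18.3% lower in KO, so a member past 2-fold there is no rarity. Closest to the threshold inside it were Cst7 at 1.21 (KO minus WT without TNF) and BC100530 at 1.38 (KO minus WT with TNF). Closest outside it were Cst3 at -0.91 and Stfa3 at -0.77, in WT neutrophils minus WT macrophages, and Stfa3 at -0.85 in the KO pair.

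Scaling to the 8 spike-in probes moved the median of all probes by -0.52 (no TNF), -0.78 (TNF) and -0.41 (neutrophils) in the KO minus WT comparisons. With TNF it left Stfa2l1 at 0.76 and BC100530 at 0.60, below 2-fold. It moved neutrophils minus macrophages by -1.58 in WT and -1.47 in KO, which turned the balance of calls. In WT 4 members were then higher and 3 lower, with Cst7 at 0.04, Stfa3 at -2.35 and Cst3 at -2.49. In KO 1 was higher (Stfa2l1, at 1.30) and 5 were lower, namely Stfa1 at -1.35, Cst7 at -1.37, Stfa3 at -2.32, Cst3 at -2.96 and Cstb at -5.62. Stfa2 at 0.64 and BC100530 at 0.08 fell below 2-fold. Quantile normalization moved KO minus WT by -0.15 and -0.22 in the macrophage pairs and neutrophils minus macrophages by -0.64 in WT and -0.63 in KO, and put Cst3 at -1.26 in WT.

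**Figure D3:**
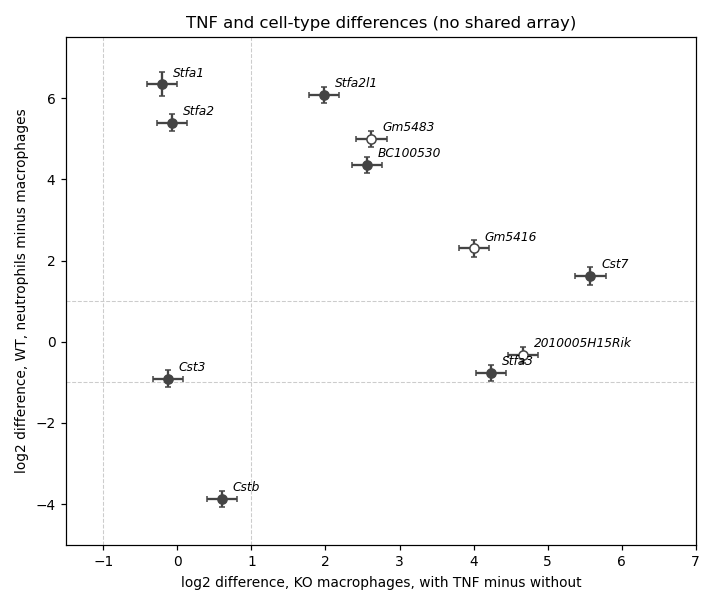
Difference with TNF minus without in KO macrophages (x axis, log2) against neutrophils minus macrophages in WT (y axis, log2) for the 8 members (filled) and 3 further stefin A genes (open), with scanner error bars and dashed lines at 2-fold. The axes share no array; Stfa1 and Stfa2 lie high near 0 on x, Stfa3 and 2010005H15Rik lie right near 0 on y, and Stfa2l1, BC100530 and Gm5483 lie between.

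Stfa1, Stfa2, Stfa2l1 and BC100530 were higher in KO macrophages and were also high in WT neutrophils, so markers of mature neutrophils were set beside them. Of the other stefin A copies, Gm5483 was likewise higher by the rule in KO macrophages, without and with TNF, and in WT neutrophils. 2010005H15Rik differed from these: it was higher in KO macrophages with TNF, by 1.16, but at -0.33 in WT neutrophils minus macrophages. Gm5416 went the same way as Gm5483, at 2.30 in WT neutrophils minus macrophages. In KO minus WT macrophages it was at 0.88 and 1.00, the second just under 2-fold. S100a9, a subunit of calprotectin, read 2969 and 74934 in WT and KO macrophages without TNF, 4155 and 55644 with TNF, then 278235 and 278975 in neutrophils. Cxcr2, the receptor for neutrophil-attracting chemokines, read 30.3 and 371 without TNF, 19.6 and 176 with TNF, then 1319 and 3943 in neutrophils. Ly6g, the surface protein used for the sort, read 53.9 and 158, then 27.4 and 76.9, then 826 and 885. Of the 11 mature neutrophil markers, 6 were higher in KO macrophages without TNF, 5 with TNF and 3 in KO neutrophils. In these comparisons 0 were lower. Of all probes, 3.82%, 7.28% and 5.64% were higher by the rule there, and 5.66%, 10.1% and 9.76% of all genes were past it in either direction. All 11 were above background on every array but WT macrophages with TNF, where 10 were. Their mean log2 level was 0.93 and 2.54 in WT and KO macrophages without TNF, 1.89 and 3.00 with TNF, then 4.41 and 5.40 in neutrophils. Csf3r, Retnlg, Mmp8, Trem3 and Fpr1, also on the list, differed by less than 2-fold between the genotypes of macrophages. Other lists went the same way in KO macrophages, both without and with TNF. Higher there were 4 of 5 measured B-cell markers, 2 of 4 T-cell markers (Cd3g and Cd3d) and 3 of 7 markers of neutrophil granule precursors (Lcn2, Ltf and Prtn3). The part of neutrophils, B cells or T cells in the stefin differences was not tested.

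The neutrophil-minus-macrophage differences of these genes in the KO pair of arrays were not alike. Stfa1 was at 0.12 in KO, against 6.34 in WT (4.01 under normexp correction). Stfa2 was at 2.11 in KO and 5.40 in WT, Stfa2l1 at 2.77 and 6.08, and BC100530 at 1.55 and 4.35. S100a9 was at 2.77 in KO and 7.63 in WT, Ly6g at 3.35 and 5.02, and Cxcr2 at 4.28 and 6.53. Among the 6 markers higher in KO macrophages without TNF, the KO difference was lowest for Mmp9, at 1.61. Stfa1 in KO was thus below each of those 6 markers, a description with no test. This does not hold for the whole list. Among its other markers Mmp8 was at 0.09 in KO, close to Stfa1, with Fpr1 at 0.93 and Csf3r at 1.19. Retnlg at 3.09 and Trem3 at 5.45 were higher. Under spike-in scaling the KO value of Stfa1 became -1.35, with Mmp9 at 0.14 and S100a9 at 1.30. Stfa1 was then still below those 6 markers, but Mmp9 was nearer to 0. Mmp8, outside the 6, was at -1.38.

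**Figure D4:**
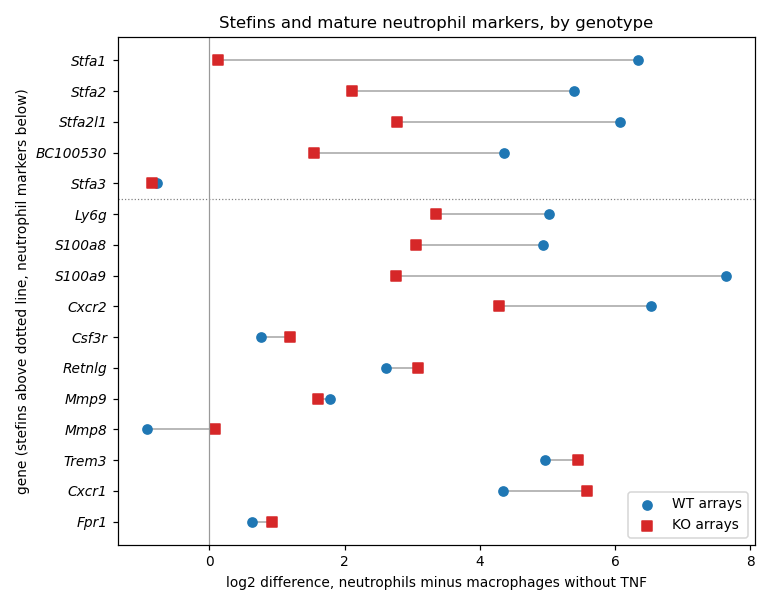
Neutrophils minus macrophages without TNF (x axis, log2 difference) on the WT arrays (blue circles) and the KO arrays (red squares) for 5 stefin A genes above the dotted line and 11 mature neutrophil markers below it. Stfa1 moves from 6.34 in WT to 0.12 in KO, and S100a9 from 7.63 to 2.77, while Stfa3, Csf3r and Mmp9 differ little between genotypes.

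The cysteine proteases that these inhibitors bind were taken as a list. All 11 papain-family cathepsins and legumain on the array were above background on all 6 arrays. Of these, 0 of 11 reached 2-fold between genotypes, with medians of 0.19 in macrophages without TNF, 0.34 with it and -0.64 in neutrophils. Taking the brightest probe of each gene, 5.66%, 10.1% and 9.76% of all genes were past the rule there, with medians of 0.07, 0.06 and -0.01, so a count of 0 is near the background. Cathepsin C (Ctsc), a target of cystatin F, read 9972 and 11603 in WT and KO macrophages without TNF, 8417 and 11413 with TNF, then 3337 and 1982 in neutrophils. The TNF arrays, on which Cst7 was high, thus had Ctsc signals near those without TNF. Legumain (Lgmn), an asparaginyl protease that some cystatins also inhibit, was the 1 gene of the list lower with TNF, by 1.73 on the log2 scale in WT and 1.74 in KO. Of all probes, 6.72% in WT and 3.64% in KO were lower with TNF by the rule. In either direction, 10.4% and 8.19% of genes were past it.

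Against macrophages, neutrophils had lower signals for 6 of the 11 proteases in WT and for 8 in KO. Of all probes, 18.7% in WT and 18.3% in KO were lower by the rule there. In either direction, 45.6% and 44.9% of genes were past it. Cathepsin K (Ctsk) differed most, at -8.66 in WT and -8.35 in KO, followed by cathepsin L (Ctsl) at -5.48 and -6.14. Cathepsin Z (Ctsz) was at -2.30 and -2.48. Ctso was the 1 higher, at 1.10 in KO. Cstb, the stefin B gene, was lower in neutrophils as well, whereas Stfa1, Stfa2, Stfa2l1 and BC100530 were higher in WT neutrophils.

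Of the granule serine proteases listed as targets of cathepsin C, 9 were on the array. Whether cathepsin C activates each of them, Tpsb2 included, was not checked. In macrophages without TNF, 2 of 6 measured were higher in KO (Prtn3 and Tpsb2), and with TNF 5 of 8 were (the largest being Gzmb, Tpsb2 and Cma1). In neutrophils Ctsg was the 1 of 4 higher in KO. Of all probes, 3.82%, 7.28% and 5.64% were higher by the rule in these 3 comparisons. In either direction, 5.66%, 10.1% and 9.76% of all genes were past it. These genes are made by granulocyte precursors, mast cells or killer lymphocytes, and 3 of 4 measured markers of mast cells and basophils, Tpsb2 being on both lists, were also higher in KO macrophages without TNF.

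Beyond the members, 19 other cystatin family genes were on the array, and 8 of them were above background on no array. Between macrophage genotypes without TNF, 1 of 11 measured was higher in KO (Gm5483) and 1 lower (Cst13), where 5.66% of all genes were past the rule. This share of genes, like those that follow here, covers both directions. With TNF 3 of 10 were higher (Gm5483, Kng1 and 2010005H15Rik) and 1 lower (Cst13), against 10.1% of genes. In neutrophils 0 of 8 were higher and 2 lower, Cst6 and Hrg (at -1.62), against 9.76% of genes. Cst13 and Cst6 were not well above background on the KO arrays concerned, so their differences are bounds. Cst13 was at least 2.77-fold lower without TNF and at least 4.22-fold lower with TNF, and Cst6 at least 3.74-fold lower. With TNF against without, 4 of 11 were higher in WT and 1 lower (Fetub, at -1.08), against 10.4% of genes, and 3 of 10 were higher and 0 lower in KO, against 8.19%. The 3 stefin A genes 2010005H15Rik, Gm5416 and Gm5483 were among them in both genotypes.

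The likeness of profiles was measured as the root mean square distance between centred log2 levels over the 6 arrays, among 12278 genes with the brightest probe each. The nearest to Stfa2 were Wfdc6b at 0.32, Papln at 0.34, Slc26a1 at 0.35, Neurod2 at 0.37 and Rfesd at 0.41. The nearest to Cst7 were Orm1 at 0.61, Clec4e at 0.68, Fpr2 at 0.97, Stfa3 at 0.98 and Gpr84 at 1.08. Candidates were limited to symbols in the style of approved names, and 2010005H15Rik, outside that limit, lay at 0.91 from Cst7. Orm1 encodes an acute-phase plasma protein, Clec4e the receptor Mincle and Fpr2 a formyl peptide receptor. For the flat Cst3 the distances were smaller, from 0.09 for Glo1 to 0.12 for Fuca1.

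Since the stefin A copies fell into 3 patterns, their promoters were compared. RefSeq promoters (GRCm38.p6, 250 bases before to 50 after the start) were found for 7 of the 8 members, Cstb being the other one. The 120 bases before the start are printed, 5′ to 3′ in the direction of the gene. Capitals mark a 12-base run held by all 5 stefin A members, and for Cst7 a match to AGGAAGT, the letters of an ETS-type site.
Stfa1, chr16:36277028-36277147, plus strand: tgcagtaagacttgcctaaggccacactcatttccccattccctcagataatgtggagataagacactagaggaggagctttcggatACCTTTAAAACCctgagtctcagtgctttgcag
Stfa2, chr16:36408364-36408483, minus strand: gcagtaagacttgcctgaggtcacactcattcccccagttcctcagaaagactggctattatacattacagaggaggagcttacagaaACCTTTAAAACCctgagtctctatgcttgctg
Stfa2l1, chr16:36156691-36156810, plus strand: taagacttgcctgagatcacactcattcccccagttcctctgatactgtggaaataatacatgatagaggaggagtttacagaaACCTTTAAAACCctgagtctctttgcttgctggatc
Stfa3, chr16:36455393-36455512, minus strand: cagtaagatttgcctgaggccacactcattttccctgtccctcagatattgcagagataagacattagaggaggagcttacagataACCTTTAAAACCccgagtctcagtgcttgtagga
BC100530, chr16:36367571-36367690, minus strand: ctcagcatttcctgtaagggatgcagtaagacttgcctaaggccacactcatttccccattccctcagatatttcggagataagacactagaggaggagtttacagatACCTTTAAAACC
Cst7, chr2:150570295-150570414, plus strand: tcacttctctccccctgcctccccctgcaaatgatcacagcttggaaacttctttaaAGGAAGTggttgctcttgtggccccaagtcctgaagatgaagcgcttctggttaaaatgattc

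The run ACCTTTAAAACC was present in 11 of 32851 promoters of the table on either strand (0.0335%). Besides the members, it was held by Gm5416 (Csta3), Gm5483 (Cstdc4), Cstdc3, Gm39539 and Gm7260. The run was picked because the stefin A members share it, so nothing is read from its share. It starts at -33, -32, -36, -34 and -12 from the RefSeq start of Stfa1, Stfa2, Stfa2l1, Stfa3 and BC100530, in that order. Stfa3 holds it as the other 4 do, so this run did not separate the gene that followed TNF alone from those that differed with genotype. Over the whole 300 bases, Stfa2 and Stfa2l1 were 90.5% identical and Stfa1 and BC100530 83.8%, yet TNF moved the second gene of each pair past 2-fold and not the first. Stfa3 was 80.9% identical to Stfa2 and to Stfa2l1. Promoter letters and the 2-fold call with TNF thus did not sort the copies alike, as a description of 5 genes. By profile distance, the member nearest to Stfa2 was Stfa2l1 (1.11), whereas BC100530 was nearest to Stfa2l1 (0.84). The Stfa2l1 probe also has a Stfa2 transcript listed, so the signals of that pair may not be separate.

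Motifs were searched by their letters on both strands of the 300 bases, and a match is no more than those letters. The loose C/EBP form includes the palindrome, and in Cst7 its match overlaps the AP-1 match. CCAAT was found in all 5 stefin A members, from -244 to -219 on the reverse strand, and in 37.4% of all promoters. AGGAAGT, found in 9.35% of all promoters, was in Cst7 at -63 and in no other member. TGANTCA, the AP-1 letters, was in Cst7 at -6 and in Stfa3 at 30 bases after the start, and in 7.81% of all promoters. Stfa2l1 and BC100530, which also were higher with TNF, hold no TGANTCA in this window. The NF-kB letters, GGG and CC with 5 bases of any kind between, were in Stfa1, Stfa2, BC100530 and Cst3 and in 50.8% of all promoters. TTNNNCAA, a loose C/EBP form present in 36.7%, was in Stfa1, BC100530 and Cst7. TTGCGCAA, the C/EBP palindrome (0.183%), and the interferon-type letters, GAAA repeated after 2 bases of any kind (3.44%), were in no member.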

How the data were processed

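Total RNA from each of the 6 groups was labelled with Cy3 and hybridised to 1 array. Per the file headers, the deposited values are linear spot intensity from Agilent Feature Extraction 10.7.3.1, background-subtracted and detrended within each array, with no scaling between arrays. The arrays shared 1 slide, per the file headers, so no slide could be tested as a batch. The marks for outlier and well-above-background spots were also the authors' deposited output. Of 59305 gene spots, 101 to 121 per array were left out as outliers, and no spot was saturated. The number of arrays limits the precision.

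Spots were averaged to 55681 probes and log2 values were set relative to each array's 75th percentile, in Python 3.11.15 with pandas 2.3.3. A probe was called at a log2 difference of at least 1 when well above background on its brighter array. With a dimmer array below that mark, a bound had to reach 2-fold. Lists used the brightest probe per gene. The calling step was tested on simulated data. Normexp correction used limma 3.58.1, and quantile normalization was computed in Python. The alternatives also included scaling to the median of detected probes or to spike-ins, probes above background on both arrays, no filter, and a log2 threshold of 1.5. The text names all 8 members, up to 3 genes per direction of each list by size, and the 5 genes most alike in profile to Stfa2, Cst7 and Cst3. Further names were chosen after their values were seen. The members and lists were chosen with earlier results of these data known. Symbols follow the files, with RefSeq names of GRCm38.p6 in brackets. Protein sequences were not used here.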

Additional observations from a re-analysis of the deposited data

How the results depend on the processing

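With 1 array per group, no array could be left out and no error was available between mice. No paired analysis was possible because each group held 1 array. Of 63 counts of members or list genes recomputed under other settings, 62 stayed within 1.5 times the value given. The other was KO minus WT in macrophages with TNF, where scaling to the spike-ins left 2 of the 8 members past 2-fold in place of 4. Chosen after seeing the data, members higher in WT neutrophils than in the WT macrophages of the other TNF condition were left out. This left 2 members (BC100530 and Cst7) past 2-fold in KO minus WT macrophages without TNF, and 0 with TNF. Both were kept because of their WT macrophage signals with TNF. WT neutrophils minus WT macrophages was 0.41 with TNF but 4.35 without for BC100530, and -5.34 and 1.62 for Cst7. The Cst7 call was also lost under normexp correction and spike-in scaling. Nothing is read from this split. No called member difference changed sign in the 392 recomputed values. Of these, 314 moved by less than the scanner error, and 48 of the 78 that moved more did so under spike-in scaling. The filter on both arrays, no filter and the 1.5 threshold could not move a value, as all 8 members were above background throughout. Each of those settings thus counted 56 of 56 as unmoved. Among the rest, normexp correction moved 21 of 56, quantile normalization 9 and scaling to the median of detected probes 0. Totals can hide a turn in direction: in KO neutrophils minus macrophages, spike-in scaling gave 1 member higher and 5 lower in place of 3 and 2. The dim signals of Stfa1 in WT macrophages limit its folds between genotypes.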
